A study of Mus musculus with 20 samples.

Results

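Proteins that enter the secretory pathway are folded in the lumen of the endoplasmic reticulum (ER) by a small set of very abundant chaperones and enzymes. Hspa5 (BiP) is an ATP-driven chaperone of the Hsp70 family, with Dnajb11 as a co-chaperone and Hyou1 as an exchange factor. Hsp90b1 (GRP94) is the ER member of the Hsp90 family, Calr (calreticulin) and Canx (calnexin) hold glycoproteins through their sugars, and Pdia3, Pdia4, Pdia6 and P4hb are protein disulfide isomerases that form and reshuffle disulfide bonds. All of their mRNAs are translated on ribosomes at the ER membrane, and many of the genes are induced together when unfolded proteins build up in the ER. These 10 genes, chosen by name, were found among the 23284 genes of the count tables, and all 10 passed the filter on low counts that left 13710 genes for testing.

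The measurements were RNA immunoprecipitation followed by sequencing (RIP-Seq) in wild type mouse embryonic stem cells (ESCs), grown on gelatin with serum and leukemia inhibitory factor. In each line a Flag+HA+Twin-Strep tag had been added by CRISPR-Cas9n at the C-terminus of an endogenous Tet protein, a dioxygenase that oxidises 5-methylcytosine. The lines were Tet1-KI with tagged Tet1, Tet2-KI with tagged Tet2, and Tet2dRBD, with tagged Tet2 that lacks its RNA-binding domain. RNA recovered from cytoplasmic extract with anti-Flag antibody (IP) was sequenced beside input RNA, which the authors describe as total RNA of the ESCs. There were 2 pairs for Tet1, 4 for Tet2 and 4 for Tet2dRBD, 20 libraries in all. The question was which transcripts each Tet protein carries and whether this depends on the RNA-binding domain. The lines grew from picked clones and the labels do not say whether replicates were separate cultures, so the p-values measure the spread between these samples, which may be technical. IgG control reactions were not analysed here, so a ratio above input is not set against non-specific recovery. A ratio also sets RNA from the extract against total RNA, and this difference cannot be told apart from recovery with the Tet protein.

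The libraries held between 21078995 and 37576638 expected counts, and the member with the fewest, Dnajb11, still had 947 in its lowest library. All 10 ESC markers, including Pou5f1 and Nanog, had a mean input level of at least 10 TPM (abundance scaled to transcript length and library total), and their summed input level lay between 14573 and 19003 TPM. The 15 markers of differentiated cells summed to between 51.2 and 145 TPM. By the numbering of the deposited data, which the labels do not explain, replicates 1 and 2 of Tet2 and Tet2dRBD belong to separate sets of libraries, while replicates 3 and 4 share a set with both Tet1 replicates. Replicates 3 and 4 were far more alike than other replicates of these lines, with a chi-square per gene of 2.83 to 17.5 against at least 146 for every other pair of replicates in these lines. Both Tet1 replicates were as alike, at 8.01 in IP and 8.1 in input, so the spread in Tet1 may also be mostly technical.

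Sequences in and near the member genes are shown first, with features that some but not all of the members share. The ER stress response element is bound by transcription factors of the unfolded protein response and consists of CCAAT, then 9 bases of any kind, then CCACG. It was searched on both strands in RefSeq promoter windows (GRCm38.p6) that reach from 250 bases before to 50 bases after the gene start. Of the 9 members with a window, 5 held it (55.6%), against 37 of all 27025 gene symbols with a window (0.137%). In the sequences that follow, each read in the direction of the element with up to 5 flanking bases on either side, the capitals mark both conserved parts.
Hspa5 (chr2:34772020-34772048, plus strand): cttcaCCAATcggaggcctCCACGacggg
Hsp90b1, nearer site (chr10:86705528-86705556, plus strand): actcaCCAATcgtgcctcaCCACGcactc
Hsp90b1, farther site (chr10:86705633-86705661, minus strand): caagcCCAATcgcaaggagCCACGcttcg
Calr (chr8:84847070-84847098, plus strand): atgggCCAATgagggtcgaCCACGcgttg
Canx (chr11:50325795-50325823, minus strand): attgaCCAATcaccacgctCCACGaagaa
Pdia6 (chr12:17266486-17266514, plus strand): agagaCCAATgaaaggcggCCACGgcgtg
The Hspa5 element began 65 bases before the gene start, and the other 5 lay between 98 and 212 bases before it. The windows of Pdia3, Pdia4, P4hb and Dnajb11 held no match, which says only that these letters are not there. Hyou1 had no entry in the table. Among the other lists of genes described below, 2 of 20 other ER folding enzymes (Dnajc3 and Creld2) and 2 of 12 genes of ER-associated degradation (Syvn1 and Derl3) held the element, and none of 30 cytosolic chaperones did. By mean IP/input ratio in all 3 lines, Hspa5 and Hsp90b1 with the element ranked highest of the members, followed by Pdia3 without a match. Calr, Canx and Pdia6 with a match ranked below Pdia3. Whether the element bears on the ratio was not tested.

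Many soluble residents of the ER carry a retrieval signal at the very end of the protein. In its best-known form the last 3 residues are aspartate, glutamate and leucine, and variants of it exist. Of the 10 members, 6 encoded these last 3 residues in the longest coding sequence of gencode vM1 (NCBIM37, mm9), against 40 of 21039 genes with a complete coding sequence (0.19%). The ends of 4 coding sequences are given, 3 for the transcripts most enriched in IP and 1 for Calr, which was not enriched in most pairs, with the last 4 codons before the stop in capitals.
Hspa5: gatacatcagaaAAAGATGAGTTGtag
Hsp90b1: gaatctacagagAAGGATGAATTGtaa
Pdia3: aagaagaaggcaCAAGAGGACCTCtaa
Calr: cctggccaagccAAGGATGAGCTGtag
Hspa5, Hsp90b1, Calr, Pdia6, P4hb and Hyou1 ended in this form. Pdia3 and Pdia4, which are known to end in variants of the signal, and Canx, which spans the membrane, and Dnajb11 did not. On mm9, Hspa5 lies at chr2:34627490-34632051 on the plus strand, Hsp90b1 at chr10:86152954-86168254 on the minus strand, Pdia3 at chr2:121239511-121264423 on the plus strand and Calr at chr8:87365749-87370833 on the minus strand. The genes are thus scattered, and the longest coding transcripts differed in GC content from 42.3% in Canx to 53.8% in P4hb and Hyou1, with a median of 51.2% over 13109 tested genes with a coding transcript. Effective lengths in the deposited tables lay between 1875 bases in Calr and 4364 bases in Hyou1.

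In the inputs, all members were well expressed, and Calr was the most abundant in every line. Its input level had a median of 761 TPM over the 10 inputs, followed by P4hb at 424 TPM and Pdia6 at 336 TPM. TPM is scaled by transcript length, so these levels can be set side by side. Canx (174 TPM), Pdia3 (130.5 TPM), Pdia4 (118 TPM), Hspa5 (111 TPM), Hsp90b1 (96.7 TPM), Dnajb11 (93.2 TPM) and Hyou1 (70.8 TPM) formed a lower group whose ranges overlapped throughout. Even Hyou1 lay above 86.8% of the tested genes. The order Calr, P4hb, Pdia6 held by the mean input level in all 3 lines.

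The spread between replicates of one line was large, and it followed the library sets. The members' summed input level was 705 TPM in Tet2 replicate 1 and 758 TPM in Tet2dRBD replicate 1. It lay between 1746 and 3025 TPM in the other 8 inputs. Against the mean of replicates 3 and 4 of the same line on the log2(TPM + 1) scale, all 10 members were lower in replicate 1, with a median difference of -1.95 in Tet2 and -1.97 in Tet2dRBD. The median over all tested genes was -0.04 and -0.10. The other ER lists were low in the same libraries. The medians for Tet2 replicate 1 were -1.56 over 23 translocon and targeting genes, -1.54 over 15 genes of N-glycosylation and the calnexin cycle, and -1.31 over 15 genes of ER-associated degradation. They were 0.07 over 36 cytosolic and 0.41 over 10 mitochondrial chaperones. Tet2dRBD replicate 1 had the same pattern, with -1.38, -1.46 and -0.97 for the ER lists in that order and -0.06 and 0.19 for the cytosolic and mitochondrial chaperones. The low level in replicate 1 thus covered these lists of the secretory pathway in both lines, and its source was not tested. In replicate 2 the median difference of the members was smaller, at -0.32 in Tet2 and -0.77 in Tet2dRBD, and the lists lay otherwise. The translocon list was at -0.66 and -0.62 in these libraries, N-glycosylation at -0.04 and 0.21 and ER-associated degradation at -0.14 and 0.13. The cytosolic chaperones were at 0.01 in Tet2 and -0.91 in Tet2dRBD, where 27 of 36 were lower. Hspa5, Hsp90b1 and Pdia3 were among the lowest there, at -2.50, -2.49 and -2.25 in Tet2dRBD and -1.02, -1.11 and -0.97 in Tet2.

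**Figure D1:**
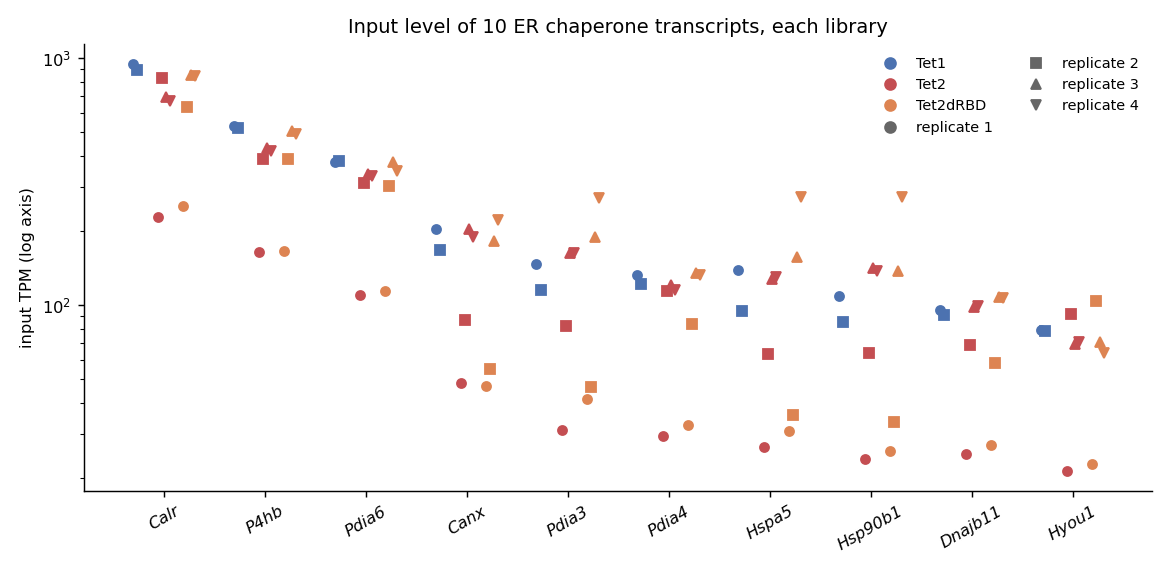
Input level (TPM, log axis) of the 10 ER chaperone transcripts in each of the 10 input libraries, coloured by line, with a marker shape for each replicate number. The circles of Tet2 and Tet2dRBD replicate 1 are the lowest points for every gene, and the downward triangle of Tet2dRBD replicate 4 stands highest for Hspa5, Hsp90b1, Pdia3 and Canx.

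Within the set that holds Tet1 and replicates 3 and 4, one input stood apart for the same 3 genes. Tet2dRBD replicate 4 had input levels of 273 TPM for Hspa5, 273 TPM for Hsp90b1 and 271 TPM for Pdia3. In the other 5 inputs of this set Hspa5 lay between 94.5 and 156 TPM. Against Tet2dRBD replicate 3 the difference on the log2 scale was 0.81 for Hspa5, 0.99 for Hsp90b1 and 0.52 for Pdia3, with a median over all tested genes of 0.01. The median over the 2003 other genes called higher in Tet2 IP was 0.13. This library enters all ratios of Tet2dRBD replicate 4 given below. No member differed between the Tet2dRBD and Tet2 inputs by edgeR's quasi-likelihood test over 13178 genes, where 0 genes passed an adjusted p of 0.05 (0%) and 248 had an unadjusted p under it. DESeq2 called 9 genes, none a member. The fitted differences of the members lay between -0.08 for Canx and 0.49 for Hspa5, with standard errors of 0.38 to 0.76. This fit had no block, so its standard errors also hold the differences between library sets, and it could not resolve differences of this size. With the replicate number as a block, edgeR called 5 genes (0.0379%), none a member, and 1648 had an unadjusted p under 0.05.

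The members then parted into 3 groups by their IP/input ratio, which was computed from TPM + 1 in each pair. Hspa5, Hsp90b1 and Pdia3 stood above input in all 10 pairs. In Tet2dRBD replicate 4, their lowest pair, they differed from the median expressed gene by only 0.19, 0.06 and -0.06 on the log2 scale. Hyou1 and Pdia6 were also above input in all 10 pairs, by much less. The other 5 lay on either side of input. In all, 5 of 10 members were above input in all 10 pairs, as were 22.4% of the tested genes, and the median ratio of the 11784 expressed genes was itself above input, from 0.01 to 0.38 on the log2 scale.

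Hspa5, the ER Hsp70, had IP levels of 424 and 394 TPM against input levels of 138 and 94.5 TPM in Tet1 replicates 1 and 2. In Tet2, replicates 1 to 4 had 147, 379, 277 and 270.0 TPM in IP against 26.7, 63.1, 128 and 130.2 TPM in input. In Tet2dRBD the IP levels were 168, 159, 396 and 351 TPM and the input levels 30.9, 35.8, 156 and 273 TPM. Every IP library of Tet1 and Tet2 thus lay above every input library of its line, whereas in Tet2dRBD the input of replicate 4 exceeded the IP levels of replicates 1 and 2. The IP/input ratio ran from 1.28-fold in Tet2dRBD replicate 4 to 5.92-fold in Tet2 replicate 2, with a median of 3.56-fold, which was higher than the median ratio of 99.5% of the tested genes.

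Hsp90b1, the ER Hsp90, followed the same course. Its ratio in log2 units was 1.82 and 2.03 in Tet1, 2.95, 1.79, 1.05 and 1.04 in Tet2 replicates 1 to 4, and 3.22, 1.23, 1.47 and 0.24 in Tet2dRBD. Replicate 1 was the highest in both Tet2 lines, where the input levels were only 23.7 and 25.7 TPM and the IP levels 189.9 and 249 TPM. Pdia3, the disulfide isomerase that works with calnexin and calreticulin on glycoproteins, had ratios of 1.10 and 1.25 in Tet1, 1.87, 1.88, 0.63 and 0.55 in Tet2, and 1.65, 1.77, 0.76 and 0.12 in Tet2dRBD. Over the 10 pairs the Pdia3 ratio had a Pearson correlation of 0.98 with that of Hspa5, and the Hsp90b1 ratio one of 0.82. These correlations rest on 10 pairs of the same libraries and describe them only.

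In Tet2 the size of the ratio differed between library sets for all 3 genes. Within replicates 3 and 4 of Tet2 the 3 ratios lay between 0.55 and 1.11 in log2 units. In Tet2 replicates 1 and 2, where the inputs of these genes were low, they lay between 1.79 and 2.95. In Tet2dRBD, Hspa5 and Pdia3 were likewise higher in replicates 1 and 2. Hsp90b1 was not, with 1.23 in replicate 2 and 1.47 in replicate 3. Replicates 3 and 4 also differed in Tet2dRBD, at 1.34 and 0.36 for Hspa5. The Tet1 pairs, from the same set as replicates 3 and 4, gave 1.10 to 2.05. Within this set Tet1 therefore lay above Tet2 for each of the 3 genes, with a fitted difference between the lines of 0.78 for Hspa5 (adjusted p = 0.09), 0.91 for Hsp90b1 (adjusted p = 0.09) and 0.61 for Pdia3 (adjusted p = 0.054) in edgeR on that set alone. None of these passed the threshold, and the spread within this set may be mostly technical.

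**Figure D2:**
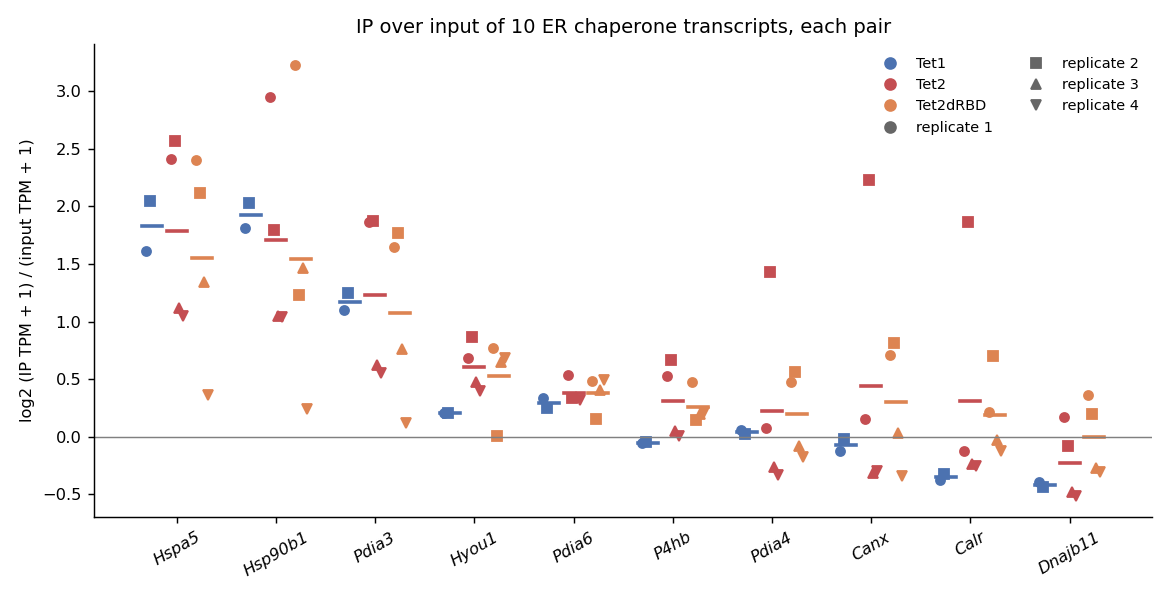
The log2 ratio of (IP TPM + 1) to (input TPM + 1) for each of the 10 transcripts and each of the 10 pairs, coloured by line, with a marker shape for each replicate number and a bar at the mean of each line. Hspa5, Hsp90b1 and Pdia3 lie above the zero line in all pairs, from 0.12 to 3.22, while Canx, Calr and Pdia4 rise to 1.43 or more in Tet2 replicate 2 alone.

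The lectin chaperones behaved differently from their partner Pdia3. Calr had IP levels of 726 and 711 TPM in Tet1 against input levels of 941 and 892 TPM. In Tet2 its IP levels were 207, 3025, 587 and 563 TPM against 226, 828, 694 and 671 TPM in input. In 3 of the 4 Tet2 pairs Calr was below input, and in replicate 2 it was 3.65-fold above. Its mean log2 ratio in Tet2 was 0.31 ± 1.04 (SD, n = 4), so that 1 pair set its sign. In Tet2dRBD the ratios were 0.21, 0.70, -0.03 and -0.12, again highest in replicate 2. Canx, the membrane-bound relative of calreticulin, had ratios of 0.15, 2.23, -0.32 and -0.29 in Tet2, 0.71, 0.81, 0.03 and -0.34 in Tet2dRBD, and -0.12 and -0.02 in Tet1.

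Pdia4 had the same profile at a smaller scale. It reached 1.43 in Tet2 replicate 2 and lay between -0.34 and 0.08 in the other Tet2 pairs. Its correlation with Calr over the 10 pairs was 0.94, and that of Canx with Calr was 0.97. Without that pair, left out after its values were seen, they were 0.78 and 0.86. Tet2 replicate 2 also had the largest median log2 ratio over all expressed genes, 0.38, and the closest tie of ratio to transcript length. The Spearman correlation between ratio and effective length over 13109 genes was 0.54 in that pair and between 0.13 and 0.41 in the other 9. In the input of this pair the effective length was 1875 bases in Calr, 2413 in Pdia4 and 4201 in Canx. The median over tested genes was 2670 bases, so Calr and Pdia4 lay below it and Canx above. Whether length bears on the high ratios of Calr, Canx and Pdia4 in this pair was not tested.

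The remaining isomerases stayed near the typical gene. Pdia6 was above input in all 10 pairs within a narrow range of 1.11-fold to 1.45-fold, and P4hb lay between 0.97-fold and 1.59-fold. P4hb, the founding protein disulfide isomerase, was below input in both Tet1 pairs, at -0.05 each, and above it in all Tet2 and Tet2dRBD pairs. Hyou1 was above input in all 10 pairs, from 0.01 in Tet2dRBD replicate 2 to 0.86 in Tet2 replicate 2, with means of 0.21 ± 0.001 (SD, n = 2) in Tet1, 0.61 ± 0.21 (SD, n = 4) in Tet2 and 0.53 ± 0.35 (SD, n = 4) in Tet2dRBD.

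Dnajb11, the co-chaperone of Hspa5, had the lowest mean ratio of the members in all 3 lines, where its partner Hspa5 was first or second. In Tet1 its IP levels were 72.7 and 66.5 TPM against input levels of 95.8 and 90.6 TPM. In Tet2 the ratio was 0.17, -0.08, -0.48 and -0.51, and in Tet2dRBD 0.36, 0.20, -0.27 and -0.31. The Tet2 and Tet2dRBD pairs of replicates 3 and 4 and both Tet1 pairs, all of 1 library set, were below input, and 3 of the 4 pairs of replicates 1 and 2 were above it.

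By the direction of every pair, 6 members were above input in both Tet1 pairs, against 50.9% of the tested genes, and 4 (Calr, Canx, P4hb and Dnajb11) were below it in both, against 30.1%. In Tet2, 6 members were above input in all 4 pairs, against 46.5% of the tested genes, and 0 below it in all 4, against 11.9%. In Tet2dRBD the same 6 members as in Tet2 were above input in all 4 pairs, namely Hspa5, Hsp90b1, Pdia3, Pdia6, P4hb and Hyou1, against 31.8% of the tested genes, and 0 were below it, against 8.56%. These shares leave the members close to the background in Tet1 and Tet2, so that the direction alone does not set them apart.

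The tests used edgeR (quasi-likelihood) on the 20 libraries together, each pair being a block, and the fitted ratios are relative to the bulk of genes. For Tet2, 4 members were called higher in IP at an adjusted p under 0.05, against 14.6% of the tested genes, and 1 was called lower, against 18.5%. Hspa5 had a fitted log2 ratio of 1.49 ± 0.33 (SE, adjusted p = 0.007), Hsp90b1 one of 1.39 ± 0.40 (adjusted p = 0.022) and Pdia3 one of 0.92 ± 0.29 (adjusted p = 0.031). Hyou1 was called at 0.30 ± 0.10 (adjusted p = 0.045). Dnajb11 fell by 0.55 on the log2 scale, with an SE of 0.14 and an adjusted p of 0.013. The ratios of Calr, Canx, Pdia4, Pdia6 and P4hb lay between -0.10 and 0.09 and did not pass. Without Tet2 replicate 2 those of Calr, Canx and Pdia4 were -0.46, -0.41 and -0.43, again not called.

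Hspa5 was called in 10 of 11 alternative analyses of Tet2, and the exception was the fit without the pair block. Without Tet2 replicate 1 or without replicate 2, Hsp90b1, Pdia3 and Hyou1 were no longer called, on fewer pairs. Their ratios were then 1.05, 0.77 and 0.33 without replicate 1, and 1.42, 0.76 and 0.27 without replicate 2. Without replicate 3 or replicate 4, Hyou1 and Dnajb11 were not called. Hyou1 was called in 3 of the 11 alternatives and Dnajb11 in 6.

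In Tet2dRBD, 1 member was called higher, against 7.4% of the tested genes, and 0 lower, against 12.1%. That member was Hspa5, at 1.31 ± 0.33 (adjusted p = 0.022), and it lost the call without Tet2dRBD replicate 1, 2 or 3. Hsp90b1 had 1.27 ± 0.41 (adjusted p = 0.052), Pdia3 0.81 ± 0.29 (adjusted p = 0.074) and Hyou1 0.26 ± 0.10 (adjusted p = 0.095). Without replicate 4, whose input was high for these genes, Hspa5, Hsp90b1 and Pdia3 were all called, with ratios of 1.70, 1.70 and 1.13, as were 8.96% of the tested genes in the same direction. In Tet1, 0 members were called higher, against 2.72% of the tested genes, and 0 lower, against 3.18%. Fitted Tet1 ratios were 1.69 ± 0.46 for Hspa5 (adjusted p = 0.056) and 1.79 ± 0.56 for Hsp90b1 (adjusted p = 0.084), and they rest on 2 pairs. The lines share 1 estimate of the spread, so these standard errors also hold the differences between library sets within Tet2 and Tet2dRBD. The Tet1 pairs themselves had ratios of 1.61 and 2.05 for Hspa5 and 1.82 and 2.03 for Hsp90b1. Of the members, 4 had an unadjusted p under 0.05 in Tet1, as did 23.5% of the tested genes, and DESeq2 called 2 higher, Hspa5 and Hsp90b1, as it did 6.13% of the tested genes.

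**Figure D3:**
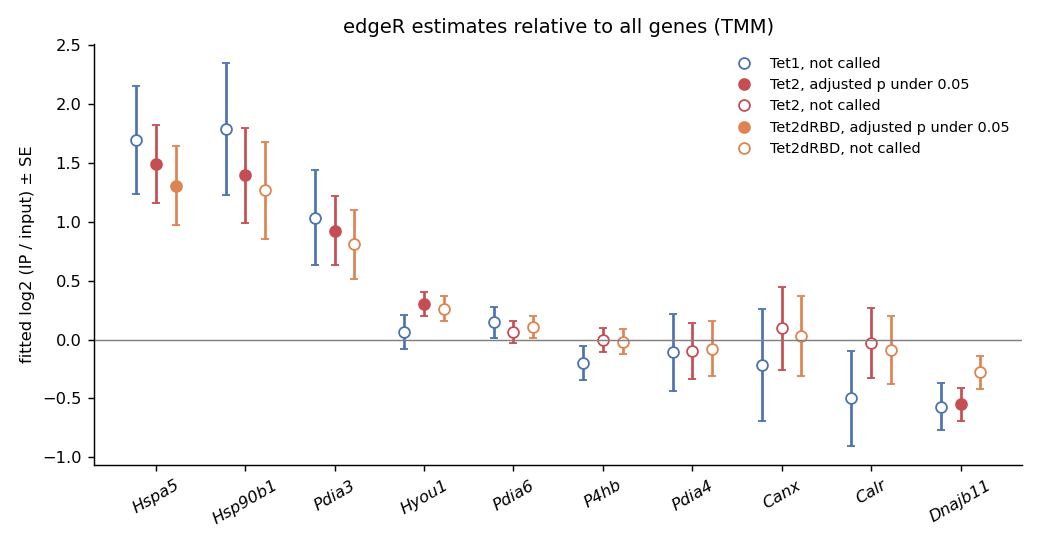
Fitted log2 IP/input ratio of each of the 10 transcripts in the 3 lines by edgeR, with bars of 1 standard error, filled where the adjusted p was under 0.05 and open where it was not. The bars of the 3 lines overlap for Hspa5, Hsp90b1 and Pdia3.

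The effect of the RNA-binding domain was tested as the difference between the Tet2 and Tet2dRBD ratios in the same fit. None of the members differed, and 3 genes in all did (0.0219%), each with a higher ratio in Tet2. The fitted difference was 0.18 ± 0.46 for Hspa5, 0.13 ± 0.57 for Hsp90b1 and 0.12 ± 0.41 for Pdia3. For the members with less spread between pairs it was -0.04 ± 0.13 for Pdia6, 0.01 ± 0.15 for P4hb and 0.04 ± 0.15 for Hyou1. The standard errors of Hspa5, Hsp90b1 and Pdia3 hold the differences between library sets, which both lines share. At the same replicate number, 1 to 4, the log2 ratio of Hspa5 in Tet2 minus that in Tet2dRBD was 0.01, 0.45, -0.23 and 0.68. A fit with the replicate number as a block shared by both lines, chosen after the data were seen and with 3 residual degrees of freedom, gave 0.19 ± 0.18 for Hspa5 (adjusted p = 0.95), 0.12 ± 0.22 for Hsp90b1 (adjusted p = 0.96) and 0.11 ± 0.17 for Pdia3 (adjusted p = 0.95). It called 0 genes, and 495 had an unadjusted p under 0.05. These values do not show that the ratios of both lines were alike. None of the members had an unadjusted p under 0.05, and DESeq2 called none. Between Tet1 and Tet2, 0 members and 0 genes in all (0%) differed, 517 genes had an unadjusted p under 0.05 but no member did, and DESeq2 called 13 genes and no member. Within the shared library set, 314 of 13379 genes were called (2.35%), and Pdia4 among them at 0.37 (edgeR, adjusted p = 0.049). The fit on all libraries gave -0.01 for Pdia4. The replicates of this set were much alike, so its spread may be mostly technical.

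The other genes of ER protein handling, in lists chosen by function, show how far the members resemble their surroundings in the Tet2 IP. Over 23 genes of the translocon and of targeting, which bring nascent chains into the ER, 1 was called higher and 11 lower, with a median fitted log2 ratio of -0.47 against 0.003 over all tested genes. Srp68, a subunit of the signal recognition particle, was the one called higher, at 0.53 ± 0.14 (adjusted p = 0.014). Sec63, which couples Hspa5 to the translocon, had 0.51 ± 0.24 (adjusted p = 0.12). Sec61g, the small subunit of the translocon channel, fell by 1.45 on the log2 scale (SE 0.24, adjusted p = 0.002), and Ssr3, of the translocon-associated complex, fell by 0.99 (SE 0.12, adjusted p = 0.0004). Of 15 genes of N-glycosylation and the calnexin cycle, 3 were called higher and 2 lower, with a median of -0.02. Uggt2, a relative of the folding sensor that returns glycoproteins to calnexin, had 1.15 ± 0.35 (adjusted p = 0.028) at a mean input level of only 0.24 TPM. Mogs, the first glucosidase, had 0.57 ± 0.13 (adjusted p = 0.007). Ostc and Stt3a, of the oligosaccharyltransferase, were lower at -0.93 ± 0.12 and -0.57 ± 0.13.

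Of 29 other ER folding enzymes and co-chaperones, 4 were called higher and 11 lower, with a median of -0.14. Dnajc1, a membrane-bound co-chaperone, was higher at 0.87 ± 0.24 (adjusted p = 0.020), with a mean input level of only 1.06 TPM. Dnajb9, another co-chaperone of Hspa5, was lower at -1.17 ± 0.14 (adjusted p = 0.0003), as was the prolyl isomerase Ppic at -1.06 ± 0.11 (adjusted p = 0.0002). The highest of the list was Txndc5, a thioredoxin-domain enzyme of the disulfide isomerase family, at 1.50 ± 0.14 in Tet2 (adjusted p = 0.0001), 0.11 ± 0.14 in Tet2dRBD (adjusted p = 0.57) and 0.15 ± 0.19 in Tet1 (adjusted p = 0.70).

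Txndc5 is described further because its profile differed from that of every member. Its input levels in Tet2 replicates 1 to 4 were 53.0, 134, 151 and 145 TPM and its IP levels 231, 379.6, 513 and 534 TPM. In Tet2dRBD the inputs were 51.2, 155, 147 and 137 TPM and the IP levels 87.1, 142, 199 and 191 TPM. The log2 ratio thus lay between 1.50 and 2.10 in the Tet2 pairs and between -0.13 and 0.75 in the Tet2dRBD pairs, without overlap, and it was 0.30 and 0.29 in Tet1. The fitted difference between Tet2 and Tet2dRBD was 1.39 ± 0.19 with an adjusted p of 0.061, just outside the threshold in edgeR. Under 17 alternatives the difference ranged from 1.27 to 1.54 and the adjusted p from 4.1e-08 to 1. Within the set of replicates 3 and 4 alone it was 1.43 ± 0.10 (edgeR, adjusted p = 9.2e-05). These replicates were far more alike than the other replicates of these lines, so this standard error may hold mostly technical spread. With replicates 3 and 4 merged, the difference was 1.35 ± 0.26 (edgeR, adjusted p = 0.57). The difference between Tet1 and Tet2 was -1.35 ± 0.24 in edgeR on all libraries (adjusted p = 0.59). Within the shared library set it was -1.50 ± 0.10 (edgeR, adjusted p = 0.0003), with the same limit. With replicates 3 and 4 merged it was -1.31 ± 0.29 (edgeR, adjusted p = 0.91). DESeq2 on all libraries gave -1.37 ± 0.24 (adjusted p = 0.0001). The other alternatives did not call it.

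In ER-associated degradation, which removes proteins that fail to fold, 2 of 15 tested genes were higher and 3 lower, with a median of 0.07. The lectin Erlec1 had 1.82 ± 0.39 (adjusted p = 0.006) and was also called in Tet1, at 2.16 ± 0.54 (adjusted p = 0.044), and in Tet2dRBD, at 1.31 ± 0.39 (adjusted p = 0.037). Its mean input level was only 1.86 TPM. Ubxn4 had 0.51 ± 0.32 (adjusted p = 0.23), while Derl2 and Faf2 were lower at -0.82 ± 0.11 and -0.41 ± 0.10. Among 13 sensors and regulators of the unfolded protein response, 2 were higher and 3 lower, with a median of 0.22. Ppp1r15a, a phosphatase subunit of the stress response, and Trib3 were higher at 0.66 ± 0.22 (adjusted p = 0.039) and 0.40 ± 0.12 (adjusted p = 0.030). The transcription factors Atf4 and Xbp1 were lower at -0.88 ± 0.09 (adjusted p = 0.0002) and -0.44 ± 0.11 (adjusted p = 0.012).

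The chaperones of other compartments were spread as widely. Of 36 tested cytosolic chaperones, 8 were higher and 3 lower, with a median of 0.09. Hsph1, an Hsp110 exchange factor, was the highest at 1.29 ± 0.26 (adjusted p = 0.004). Hspa4l had 1.25 ± 0.50 (adjusted p = 0.074) at a mean input level of only 0.33 TPM. The Hsp90 co-chaperone Ptges3 and the prefoldin subunit Vbp1 were lower at -1.28 ± 0.10 and -0.85 ± 0.18. Of 10 mitochondrial chaperones, 1 was higher, Clpx at 1.24 ± 0.35 (adjusted p = 0.020), and 2 lower, Hspe1 at -0.83 ± 0.17 and Clpp at -0.47 ± 0.16. Hspa9, the mitochondrial counterpart of Hspa5, had 0.40 ± 0.31 (adjusted p = 0.33). The ER chaperones, with 4 higher and 1 lower among 10 and a median of 0.08, ran from -0.55 (Dnajb11) to 1.49 (Hspa5), and their list median lay close to that of all tested genes.

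**Figure D4:**
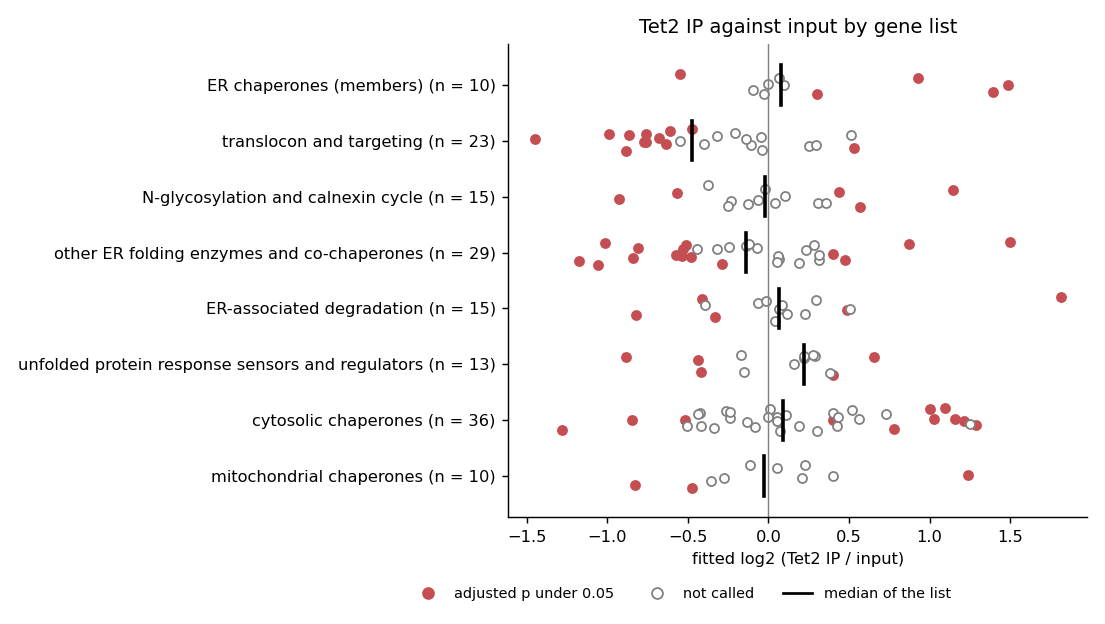
Fitted log2 Tet2 IP/input ratio (edgeR) of each tested gene in the ER chaperone list and 7 other lists, filled where the adjusted p was under 0.05, with a black line at the median of each list and the number of tested genes in brackets. The translocon list has the lowest median, -0.47, and every list holds genes called in both directions.

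The 5 other genes whose ratio over the 10 pairs was most like the mean of the members, among 8457 genes with a mean input level of at least 5 TPM, were Rg9mtd2, Rfc1, Ncor1, D19Bwg1357e and Ctcf, with Pearson correlations of 0.98 to 0.99. None is an ER chaperone. The median log2 ratio of the 10 members was highest in Tet2 replicate 2, at 1.61, and lowest in Tet1 replicate 2, at 0.12. Without the former pair the 5 correlations were 0.97 to 1.00.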

How the data were processed

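The authors trimmed reads with Trimmomatic, aligned them to mm9 with the RefSeq transcriptome and quantified genes with RSEM (Bowtie2 is also named in the submitters' processing notes, without versions). Per the file headers, each of the 20 deposited tables holds the expected count per gene, not normalized, an effective length, and TPM to which the authors had added 1. RSEM divides reads shared by similar genes by estimation, which can blur close paralogs. TPM was recovered by subtracting 1, and the log2 IP/input ratio was taken between libraries of the same number with a pseudocount of 1 TPM.

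Expected counts were rounded to whole numbers and fitted with edgeR 4.0.16 in R 4.3.3 (TMM, genes with at least 1 CPM in at least 2 libraries, quasi-likelihood F test, Benjamini-Hochberg adjustment over all genes tested, threshold 0.05). All 20 libraries entered with each pair of IP and input as its own block, plus 1 IP effect per line, which left 7 residual degrees of freedom. Replicates 3 and 4 of Tet2 and Tet2dRBD entered as separate pairs although they were far more alike than the other replicates of these lines. A fit with these replicates merged was an alternative. The Tet2dRBD and Tet2 inputs were compared without a block. Standard errors were derived from the F statistic, as the size of the log2 ratio over the root of F. DESeq2 1.42.0 and limma 3.58.1 were alternatives, and the tests were tested on simulated data. The replicate numbers of the labels pair the samples: IP and input deviations from their group means correlated at 0.27 to 0.87 for the same number in every line. For different numbers it was -0.76 to 0.02, except between replicates 3 and 4 of one line (0.61 to 0.80), so that these 2 are told apart by the labels only. Between Tet2 and Tet2dRBD inputs of the same number the correlation was 0.70 to 0.90. Promoter sequences came from RefSeq (GRCm38.p6), and 9 of 10 members matched by symbol. Gene positions and coding sequences came from gencode vM1. Python 3 with matplotlib drew the plots. The members and the lists were chosen with earlier results of these data known. Named genes of a list are the 2 highest and the 2 lowest by fitted Tet2 ratio. The listed symbols Vimp and Pfdn6 were not found in the tables.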

Additional observations from a re-analysis of the deposited data

Results flagged for a closer look

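Of 40 sets of 4 values compared within Tet2 and Tet2dRBD (log2 ratio and input level of each member), 6 had a value that stood apart from the other 3 by Dixon's criterion at the 95% level. For independent values chance gives about 1 in 20. That rate is no baseline here, since replicates 3 and 4 share a library set and the members share the same libraries. The log2 ratio of Calr in Tet2 replicate 2 was 1.87, against -0.25 to -0.13 in the other pairs. That of Pdia6 in Tet2 replicate 1 was 0.53, against 0.32 to 0.34. That of Hyou1 in Tet2dRBD replicate 2 was 0.009, against 0.65 to 0.77. In the Tet2 inputs, replicate 1 stood apart with 29.6 TPM for Pdia4, against 114 to 120.0 TPM in the others, with 109 TPM for Pdia6, against 312 to 339 TPM, and with 164 TPM for P4hb, against 391 to 430.2 TPM.

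P4hb was above input in every Tet2 and Tet2dRBD pair and below it in both Tet1 pairs, with mean log2 ratios 0.36 and 0.31 higher than in Tet1. The fitted difference between Tet1 and Tet2 was -0.20 ± 0.18 (edgeR, adjusted p = 0.94), and that between Tet1 and Tet2dRBD was not tested.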

How the results depend on the processing

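The number of members called out of 10 depended on the analysis. For Tet1 it was 0, with 2 by DESeq2, 1 by limma on log2(TPM + 1), 1 without the filter on low counts and 8 on the Tet1 libraries alone. Those analyses called 11.5%, 4.64%, 3.82% and 55.0% of all genes, against 5.9%, and the last used 4 libraries. For Tet2 it was 5, between 2 and 3 when 1 replicate was left out, and 0 without the replicate block. Those analyses called 19.8% to 26.5% and 2.74% of all genes, against 33.1%. For Tet2dRBD it was 1, with 4 by DESeq2, 5 by limma on log2(TPM + 1), 5 on log2(TPM + 0.1) and 2 without the filter. It was 0 on its libraries alone, 0 without the replicate block and between 0 and 3 when 1 replicate was left out. In that order, these analyses called 23.9%, 28.1%, 29.2%, 11.9%, 5.64%, 0.336% and 5.8% to 20.1% of all genes, against 19.5%. Between Tet1 and Tet2 it was 0, but within the shared library set 1 member was called, as were 2.35% of all genes. That member was Pdia4, at 0.37 (edgeR, adjusted p = 0.049) against -0.01 over all libraries, a reversed sign. Differences between Tet2 and Tet2dRBD and between their inputs gave 0 in every alternative, the replicate blocks included. The cause was not tested. Of the 750 member estimates under alternatives, 125 others changed sign without a call on either side.

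Over all genes, the calls for Tet1 went from 809 to between 0 and 6985, for Tet2 from 4540 to between 375 and 5933, and for Tet2dRBD from 2674 to between 46 and 4009, with the lowest counts of Tet2 and Tet2dRBD in fits without the replicate block. Leaving out 1 replicate gave 0 in Tet1, 2690 without replicate 1 to 3623 in Tet2, and 792 without replicate 3 to 2750 in Tet2dRBD. With replicates 3 and 4 of Tet2 and of Tet2dRBD merged, the calls were 316 in Tet1, 3191 in Tet2 and 1060 in Tet2dRBD. For the difference between Tet2 and Tet2dRBD they went from 3 to between 0 and 91, for that between Tet1 and Tet2 from 0 to between 0 and 314, and for the inputs from 0 to between 0 and 9. On log2(TPM + 1) scales without TMM, the median ratio of all genes was 0.23 in Tet2, 0.19 in Tet2dRBD and 0.08 in Tet1, and limma called 4801 genes higher and 1113 lower in Tet2 (edgeR 2007 and 2533), 3224 and 629 in Tet2dRBD (1014 and 1660) and 492 and 144 in Tet1 (373 and 436). The counts of the members were deep, so for them the spread between the few pairs limits the precision, not depth.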
